A study of Mus musculus with 2 samples.

Results

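Complement is a set of proteins that marks targets for uptake and sends signals to phagocytes, and 9 of its genes were followed in lung macrophages from mice lacking the receptors Axl and Mertk. They encode the chains of C1q (C1qa, C1qb, C1qc), the central component C3, factor B (Cfb), properdin (Cfp) and the receptors C3ar1, C5ar1 and Vsig4. They were chosen by name from a table of 38293 genes, and each symbol matched 1 row. Of the 9, 8 had a mean over both libraries of at least 20 normalised reads, the minimum used for a measured gene, which 11795 genes passed. The exception was Vsig4.

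C1q is built from A, B and C chains, binds antibody complexes and the surface of dying cells, and starts the classical pathway. C3 is cleaved to C3b, which coats targets, and to the small peptide C3a. Factor B and properdin form and stabilise the enzyme that cleaves more C3. The receptors C3ar1 and C5ar1 sense the peptides C3a and C5a, and Vsig4 takes up particles coated with C3 fragments. Macrophages and dendritic cells are main sources of C1q, whereas most C3 in plasma is made by hepatocytes.

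The cells were resident macrophages of the lung, sorted for CD45, Siglec-F, a high level of CD11c and a low one of CD11b, from C57BL/6 mice 8 weeks of age. All mice, including the controls, had received 625 third-stage larvae of the roundworm Nippostrongylus brasiliensis under the skin, 7 days before the lungs were removed. There was 1 library from mice deficient in both Axl and Mertk (Axl-/-Mertk-/-) and 1 from wild-type (WT) mice. Both are tyrosine kinases of the phagocyte surface that recognise apoptotic cells through bridging proteins, and the comparison asks how expression differs without them. Neither the number of mice behind a library nor the deleted part of either gene is given, and no uninfected sample was used here.

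The libraries held 15519680 reads in Axl-/-Mertk-/- and 15282882 in WT. A single library stands for each genotype, so differences could not be set against the spread between animals and no test was possible. Intervals beside single values cover counting error only, and treat every read as an independent molecule. Ratios are Axl-/-Mertk-/- over WT. Axl was at 15.5% of the WT value and Mertk at 43.8%, the direction the labels give. The CD11c gene Itgax had 8157 normalised reads per kb in Axl-/-Mertk-/- and 8346 in WT, far above the CD11b gene Itgam at 883 and 893. The sort used surface proteins, so these RNA levels do not check it. The level of Itgam is also uncertain, because 68.7% of its exon bases are shared with the gene model Gm49368 on the same strand.

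Most complement genes followed here were strongly expressed, and their order by level was alike in both libraries. Per kb of exon, the order was C1qb, C1qa, C3, Cfp, C1qc, C5ar1, C3ar1, Cfb and Vsig4 in each. The level of C1qb was 8237 normalised reads per kb in Axl-/-Mertk-/- and 7489.5 in WT, above 99.4% and 99.3% of measured genes. C1qa was at 7088 in Axl-/-Mertk-/- and 6449.7 in WT on the same scale. For all 8 neighbouring pairs in this order the counting intervals of the levels lay apart in each library. The place of C1qc depended on the length used: with its longest transcript in place of all its exons, C1qc stood above C3 and Cfp in both libraries.

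**Figure D1:**
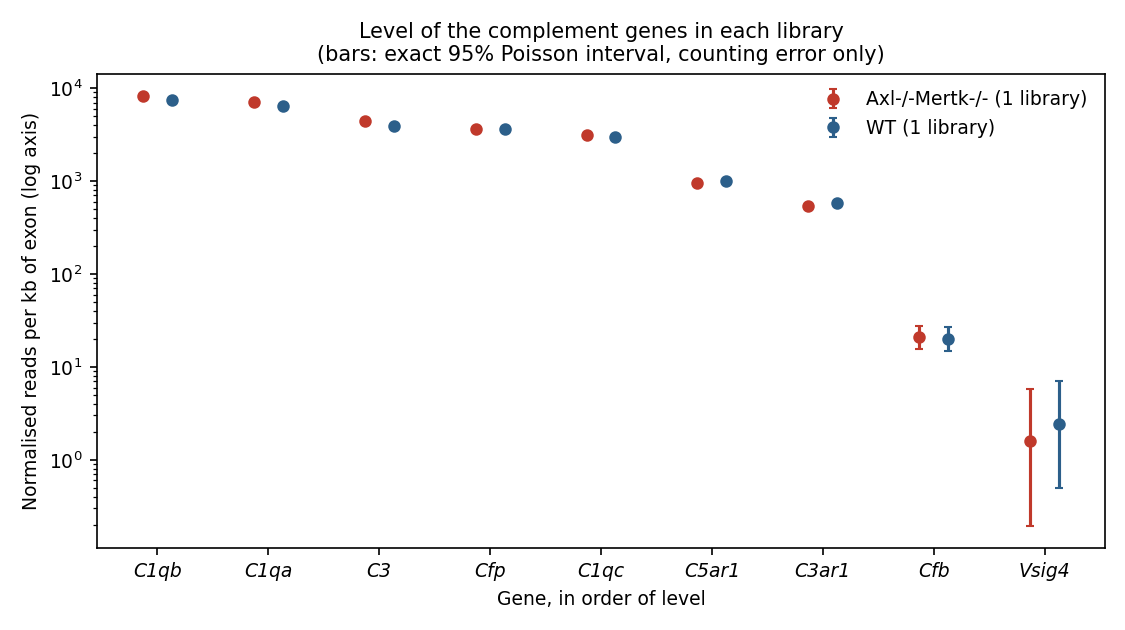
Level of each complement gene in normalised reads per kb of exon, on a log axis, in the Axl-/-Mertk-/- library (red, left of each pair) and the WT library (blue, right), with exact 95% Poisson intervals for counting error. C1qb, C1qa, C3, Cfp and C1qc lie between 2978 and 8237, the receptors C5ar1 and C3ar1 between 537 and 996.9, Cfb near 20.9 and 20.1, and Vsig4 at 1.59 and 2.44.

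None of the 8 measured genes was 1.5-fold higher or lower in Axl-/-Mertk-/-. The same fold was passed by 1.74% of all measured genes upward and by 1.33% downward. The median log2 ratio over the 8 genes was 0.06, where the median of all measured genes was -0.0047. The counting interval of the ratio lay above 1 for C1qa, C1qb, C1qc and C3 (4 of 8, beside 10.1% of all measured genes) and below 1 for C3ar1 (1 of 8, beside 11.4%). Abundant genes have narrower intervals: among the 3508 genes with a mean of at least 1000 normalised reads, 15.8% had an interval above 1 and 19.8% one below 1. In these abundant genes the central 95% of ratios ran from 0.846 to 1.18, and every ratio of the 7 abundant complement genes lay inside it.

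**Figure D2:**
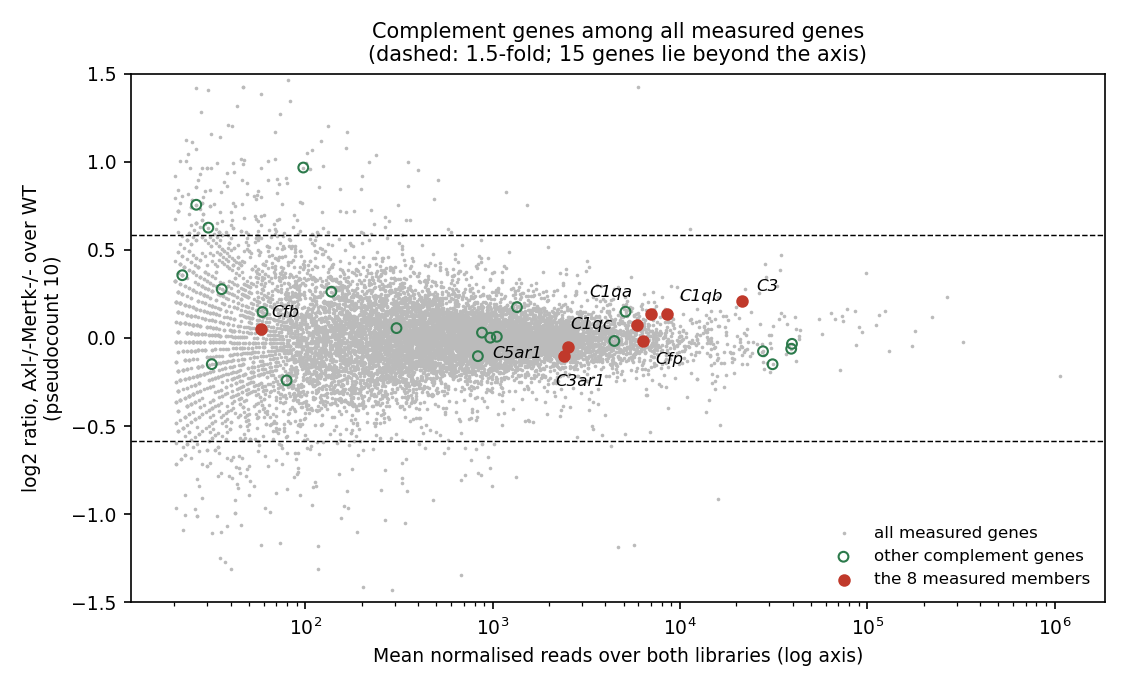
The log2 ratio of Axl-/-Mertk-/- over WT (pseudocount 10) against the mean of both libraries in normalised reads, for all 11795 measured genes (grey), 21 other complement genes (green rings) and the 8 measured members (red). Dashed lines mark 1.5-fold, and the red points run from -0.10 for C3ar1 to 0.21 for C3, all between the lines; 15 genes lie beyond the axis.

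The genes for the chains of C1q were all slightly higher in Axl-/-Mertk-/-. In a library of many cells, more cells of a type and more RNA per cell cannot be told apart. The genes lie side by side on the minus strand of chromosome 4 (GRCm38) in the order C1qb, C1qc and C1qa, within 18.7 kb (136880129 to 136898803). C1qa, the A chain, had 7372 normalised reads in Axl-/-Mertk-/- (95% Poisson interval 7190.0 to 7557) and 6708 in WT (6532 to 6886). Its ratio was 1.10 (exact 95% interval 1.06 to 1.14). C1qb, the B chain, had 8962 in Axl-/-Mertk-/- (8761 to 9166) and 8149 in WT (7955 to 8345), also a ratio of 1.10 (1.06 to 1.14). C1qc, the C chain, had 6046 in Axl-/-Mertk-/- (5882 to 6214) and 5751 in WT (5588 to 5916), a ratio of 1.05 (1.01 to 1.09). For C1qa and C1qb the intervals of the levels did not overlap between the libraries, and for C1qc they did. The share of all measured genes with level intervals apart was not computed. Pooled over the chains, 22380 normalised reads in Axl-/-Mertk-/- stood against 20607 in WT, a ratio of 1.09 (1.06 to 1.11).

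The balance among the C1q chains was nearly the same in both libraries. C1qb gave 40.0% of the C1q reads in Axl-/-Mertk-/- (exact binomial interval 39.3% to 40.7%) and 39.5% in WT (38.8% to 40.3%). C1qa gave 32.9% in Axl-/-Mertk-/- (32.3% to 33.6%) and 32.6% in WT (31.8% to 33.3%). C1qc gave 27.0% in Axl-/-Mertk-/- (26.4% to 27.7%) and 27.9% in WT (27.2% to 28.6%). Among the 3 pairs of chains, the ratio of one chain's ratio to another's had an interval that included 1 each time, from 0.999 (0.952 to 1.05) for C1qa over C1qb to 1.05 (0.994 to 1.10) for C1qb over C1qc.

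The promoters of C1qb and C1qc are shown because these neighbours lay on the same side of 1, and that of C3 because it had the highest ratio of the 8 measured genes. They come from RefSeq (GRCm38.p6), run from 250 bases before to 50 bases after the RefSeq start, 5′ to 3′ on the gene's minus strand. Capitals mark matches, on either strand, to 4 motifs that were searched: TTCNNNGAA (a site type of STAT factors), the core of the interferon-stimulated response element, TGCTGA (part of a site of bZIP factors) and GAGGAA (the core of sites of the macrophage factor PU.1).
C1qb, chr4:136886151-136886450: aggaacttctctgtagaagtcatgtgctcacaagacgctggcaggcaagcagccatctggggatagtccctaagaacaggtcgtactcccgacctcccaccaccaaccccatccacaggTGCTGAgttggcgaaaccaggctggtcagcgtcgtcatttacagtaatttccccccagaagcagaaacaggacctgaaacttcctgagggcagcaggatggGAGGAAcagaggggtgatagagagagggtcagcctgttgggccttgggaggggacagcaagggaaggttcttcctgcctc
C1qc, chr4:136892865-136893164: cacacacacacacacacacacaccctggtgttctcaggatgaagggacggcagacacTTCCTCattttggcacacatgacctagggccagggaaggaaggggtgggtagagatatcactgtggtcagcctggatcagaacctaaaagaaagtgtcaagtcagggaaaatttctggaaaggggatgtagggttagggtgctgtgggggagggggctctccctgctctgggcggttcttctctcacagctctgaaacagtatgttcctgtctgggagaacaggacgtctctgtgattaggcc
C3, chr17:57228087-57228386: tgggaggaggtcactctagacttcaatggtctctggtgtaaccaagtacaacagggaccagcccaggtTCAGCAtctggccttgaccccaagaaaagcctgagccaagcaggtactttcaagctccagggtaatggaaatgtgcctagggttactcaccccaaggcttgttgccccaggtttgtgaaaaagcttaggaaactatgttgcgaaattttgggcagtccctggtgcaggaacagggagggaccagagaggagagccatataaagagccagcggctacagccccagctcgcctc
The C1qb window holds TGCTGA at position -131 and GAGGAA at -30 from the start. The C1qc window holds GAGGAA on the opposite strand, read here as its reverse complement at -193. The C3 window holds TGCTGA on the opposite strand at -182. Of the windows not shown, those of C3ar1, C5ar1 and Vsig4 also hold TGCTGA, and those of Cfp and Vsig4 hold GAGGAA. Both motifs were found in windows of members with ratios above 1 and of members with ratios below 1. Their part in the ratios was not tested. Neither TTCNNNGAA nor the interferon core is in the windows of the 7 members found in the promoter table. Of 32851 promoters of this length, 28.3% hold GAGGAA, 19.5% TGCTGA, 8.30% TTCNNNGAA and 3.44% the interferon core.

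C3 had the most reads of the 9 genes and the highest ratio of the 8 measured. The gene lies on chromosome 17 (57203970 to 57228136). It had 23047 normalised reads in Axl-/-Mertk-/- (22724 to 23372) and 19927 in WT (19625 to 20234), a ratio of 1.16 (1.13 to 1.18). The intervals of the levels did not overlap, for which the share of all measured genes was not computed. C3 took 0.126% of all reads in Axl-/-Mertk-/- and 0.108% in WT, which made it number 65 and number 87 among all genes by reads. Of the abundant genes, 3.11% had a higher ratio. The ratio of C3 was above that of 6 of the 7 other measured members by more than counting error, the exception being Cfb, whose few reads give a wide interval. For example, the ratio of C1qc over that of C3 was 0.909 (0.869 to 0.951). How often pairs of other genes differ in this way was not computed.

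Of the alternative pathway genes, Cfp was abundant and close to equal, and Cfb was low. Properdin is the only positive regulator known in this pathway, and it is also stored by neutrophils. Cfp (chromosome X, 20925454 to 20931555) had 6312 normalised reads in Axl-/-Mertk-/- (6144 to 6483) and 6381 in WT (6210 to 6555). The ratio was 0.989, with an interval of 0.952 to 1.03 that leaves room for a change of a few percent in either direction. Cfb (chromosome 17, 34856374 to 34862518) had 59.0 normalised reads in Axl-/-Mertk-/- (43.8 to 77.8) and 56.7 in WT (41.7 to 75.4). Its ratio of 1.04 had an interval from 0.685 to 1.58, so a difference of under about 1.5-fold was not detectable at this depth. The level of Cfb is itself uncertain, because 79.5% of its exon bases are shared with Gm20547, a gene model on the same strand that also shares exon bases with C2. Gm20547 had 0 reads in both libraries, and the treatment of reads that match more than 1 gene is not given in the sources used here.

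The peptide receptors C3ar1 and C5ar1 were slightly lower in Axl-/-Mertk-/-. C3ar1 (chromosome 6, 122847138 to 122856161) had 2311 normalised reads in Axl-/-Mertk-/- (2210.0 to 2416) and 2485 in WT (2379 to 2595). The ratio was 0.930 (0.874 to 0.990), although the intervals of the levels overlapped. With size factors computed from these libraries alone the interval was 0.883 to 1.001 and included 1. C5ar1 (chromosome 7, 16246743 to 16259540) had 2468 in Axl-/-Mertk-/- (2364 to 2576) and 2562 in WT (2454 to 2673), a ratio of 0.963 whose interval included 1 (0.906 to 1.02). C5ar1 lies 9.50 Mb from Axl, a targeted gene, so a difference carried by the chromosome around Axl and a difference made by the missing receptors cannot be told apart for it. The ratios of the C3ar1 and C5ar1 pair did not differ beyond counting error, at 0.966 (0.886 to 1.05).

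The ratios of the C1q genes and C3 lay above 1 and those of C3ar1 and C5ar1 below 1, although the interval of C5ar1 included 1. C5ar2, another C5a receptor that is not among the members, also lies within 20 Mb of Axl. Its ratio was 1.04 (0.872 to 1.24). The ratio of C3 over that of C3ar1 was 1.24 (1.16 to 1.33), and that of C3 over C5ar1 was 1.20 (1.13 to 1.28). C1qa over C3ar1 was 1.18 (1.10 to 1.27), and C1qc over C3ar1 was 1.13 (1.05 to 1.22). Over all 28 pairs of measured members the interval excluded 1 for 15. The pairs reuse the same genes, and the share over pairs of all measured genes was not computed, so the count has no background. These ratios of ratios do not depend on the scaling between libraries, but they rest on the same single library of each genotype.

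Vsig4, a receptor for C3b fragments on Kupffer cells and other resident macrophages, was at the detection limit. It had 2 reads in Axl-/-Mertk-/- and 3 in WT, which is 2.36 and 3.62 normalised reads, and a count of 0 would allow up to 3.54 and 3.62. The gene lies on chromosome X (96247203 to 96293438). No ratio is given for it.

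The other complement genes were read from a list of 48, of which 21 were measured. Of these, 13 were higher and 8 lower, 3 were past 1.5-fold upward and 0 past it downward, beside 1.74% and 1.33% of all measured genes. The median log2 ratio was 0.03. The 3 genes past the fold, Clu, C4a and C6, all had low counts. The counting interval of the ratio was 1.503 to 2.99 for Clu, 1.08 to 4.28 for C4a and 0.981 to 3.38 for C6. The share past 1.5-fold among genes of similarly low counts was not computed, so the part of low counts in these ratios was not tested.

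In the classical pathway the genes that act after C1q had fewer normalised reads than any C1q gene. Of the 4 measured, only C4a was past 1.5-fold. C1ra, the first protease of the complex, had 886 normalised reads in Axl-/-Mertk-/- and 868 in WT, a ratio of 1.02 (0.921 to 1.13). Its near copy C1rb was not analysed here, and the copies are 97.9% identical over 2432 bases, so the value is uncertain. The second protease, C1s1, had only 8.26 and 7.24. C2, which with C4 forms the classical C3-cleaving enzyme, had 26.0 and 18.1, and 42.8% of its exon bases are shared with Gm20547. C4b, the main C4 gene, had 804 in Axl-/-Mertk-/- and 864 in WT, a ratio of 0.930 (0.836 to 1.03). C4a had 35.4 and 16.9, a ratio of 2.10 (1.08 to 4.28), but it is 96.0% identical to C4b over 5378 bases, so how reads were split between the copies is uncertain.

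Of the lectin pathway only Fcna, a ficolin that binds sugars on microbes, was measured among 8 genes, at 72.0 normalised reads in Axl-/-Mertk-/- and 86.9 in WT, a ratio of 0.829 (0.579 to 1.18). The mannose-binding lectin genes Mbl1 and Mbl2 and the protease gene Masp1 had 0 reads in both libraries. Of the alternative pathway, Cfd and Cfi, the proteases factor D and factor I, had at most 2 reads in either library.

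Of the 7 genes of terminal components, which build the membrane attack pore, 3 were measured, all at low levels. Hc, the mouse C5 gene, had 40.1 normalised reads in Axl-/-Mertk-/- and 31.4 in WT, a ratio of 1.28 (0.745 to 2.22). C6 had 39.0 and 21.7, past 1.5-fold, with a counting interval of 0.981 to 3.38 that included 1. C8g, a small chain of C8 whose span overlaps Fbxw5 on the other strand, had 29.5 and 33.8. C8a, C8b and C9 had 0 reads in both libraries, and C7 had 6 in each.

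Among the regulators, Clu, or clusterin, a chaperone that also blocks the terminal complex, had the highest ratio of those measured. It had 132 normalised reads in Axl-/-Mertk-/- and 62.8 in WT, a ratio of 2.11 (1.503 to 2.99). Cr1l, the mouse membrane inhibitor Crry, was the most abundant regulator, at 1055 and 1050.0, a ratio of 1.01 (0.914 to 1.10). Cd55, the decay-accelerating factor, had 62.6 and 55.5.

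The remaining receptors and C1q-binding proteins were mostly abundant and close to equal. Itgb2, the common chain of the complement receptors CR3 and CR4, had 38429 normalised reads in Axl-/-Mertk-/- and 40093 in WT, a ratio of 0.958 (0.944 to 0.973). Its partners Itgam and Itgax had ratios of 0.988 (0.944 to 1.03) and 0.977 (0.963 to 0.992); both were also used to choose the cells. Calreticulin (Calr) and Lrp1, which have been described as a pair that binds C1q on phagocytes, had ratios of 0.949 (0.932 to 0.967) and 0.902 (0.886 to 0.917). Cd93, first described as a C1q receptor and also made by endothelium, had 5387 and 4858, a ratio of 1.11 (1.06 to 1.16), and lies within 20 Mb of Mertk. C5ar2, a second C5a receptor next to C5ar1, had 313 and 301, a ratio of 1.04 (0.872 to 1.24), and lies within 20 Mb of Axl. C1qbp, at 971 and 970.3, and Scarf1, at 151 and 124, had intervals that included 1.

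**Figure D3:**
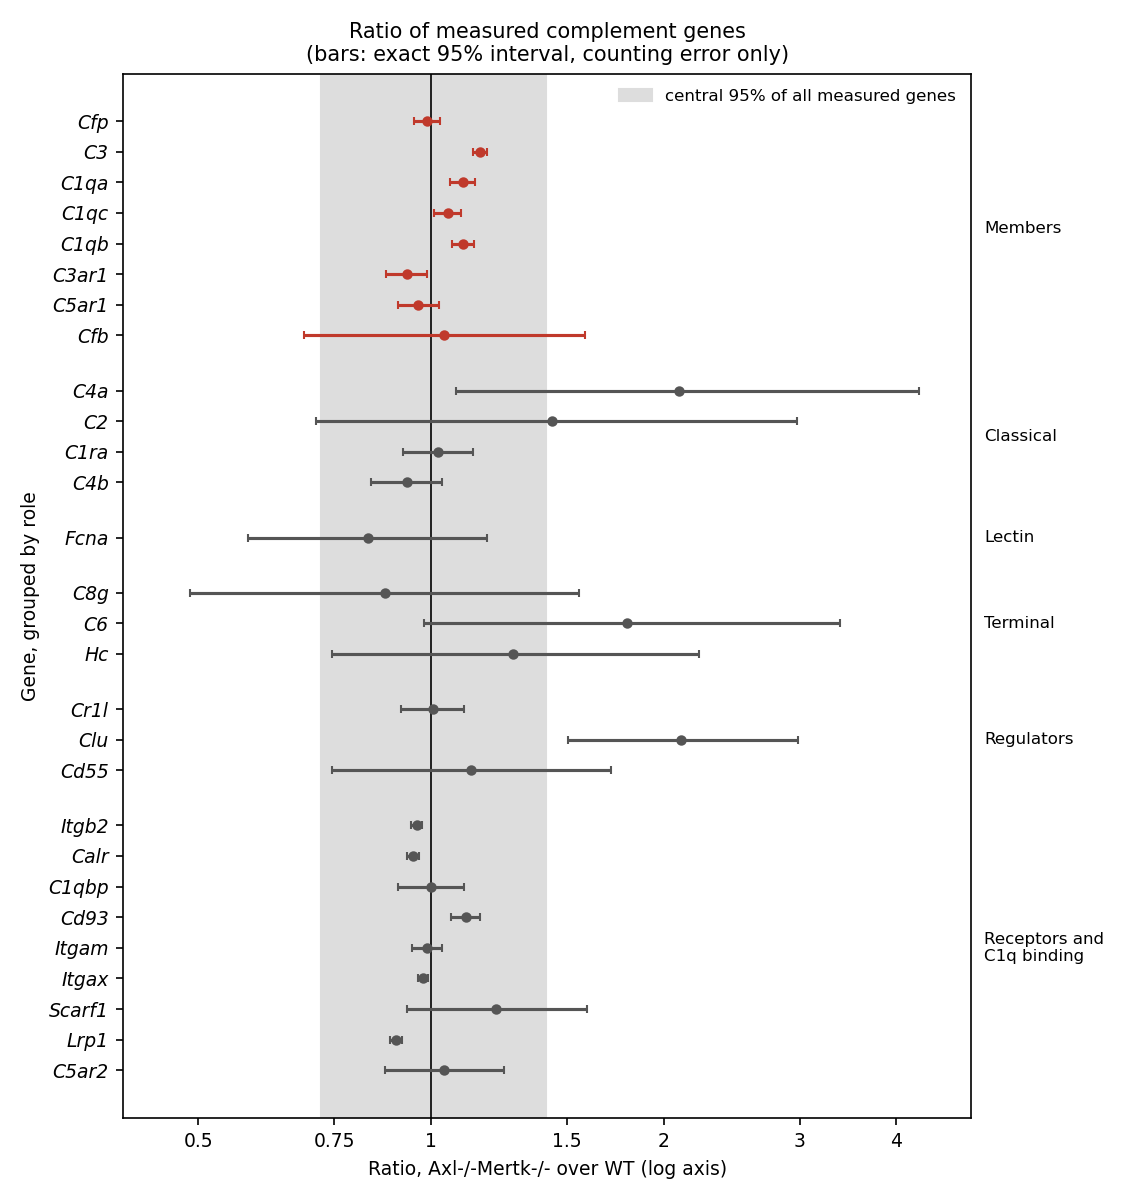
Ratio of Axl-/-Mertk-/- over WT, on a log axis, for the 8 measured members (red) and 20 of the 21 other measured complement genes (grey), grouped by role, with exact 95% intervals for counting error. The shaded band holds the central 95% of all measured genes (0.722 to 1.41, with the pseudocount of 10), whereas the points have no pseudocount. C3 at 1.16 and C3ar1 at 0.930 lie inside it, and Clu, C4a, C6 and C2 lie to its right. With the pseudocount C2, at a log2 ratio of 0.36, would lie inside the band.

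Markers of several cell types also differed between the libraries. Of all 11795 measured genes 5755 were higher in Axl-/-Mertk-/- and 6040 lower. Of 20 alveolar macrophage markers 18 were lower in Axl-/-Mertk-/-, with a summed level of 1256113 normalised reads there and 1437439.5 in WT. Without Chil3, which dominates the sum, the summed level was 261358 and 281205, a ratio of 0.929 (0.924 to 0.935). Of 20 markers of monocyte-derived and interstitial macrophages, cells that also express C1q, 11 were higher, with a summed level of 78214 and 62872. Apoe, the most abundant, lies within 20 Mb of Axl. A difference carried by the chromosome around Axl and one made by the missing receptors cannot be told apart for Apoe. Without Apoe the summed level was 38132 and 33971, a ratio of 1.12 (1.10 to 1.14). The largest part of that sum was Cd14, at 17260 and 14684. Of these 20 markers 3 were past 1.5-fold upward, beside 1.74% of all measured genes. They were the monocyte genes Ly6c2 at 2.24 (1.60 to 3.16), Plac8 at 2.06 (1.65 to 2.59) and Cx3cr1 at 1.72 (1.43 to 2.07). The 1 marker past 1.5-fold downward, beside 1.33% of all measured genes, was Folr2, which marks some interstitial macrophages, at 0.492 (0.380 to 0.633). The counting interval lay above 1 for 7 of the 20, beside 10.1% of all measured genes, and below 1 for 3, beside 11.4%. Those below were Folr2, Cd163 at 0.705 (0.607 to 0.817) and Stab1 at 0.860 (0.792 to 0.934), so the list did not move as a whole. The part of these differences in the C1q and C3 values was not tested.

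Transcripts listed as markers of other lineages, some of which make complement proteins, were found at low to moderate levels, and whether they came from such cells was not tested. Of 8 measured neutrophil markers 5 were higher, with a summed level over the 13 listed of 3252 in Axl-/-Mertk-/- and 2864 in WT. The most abundant were Csf3r, at 997 and 727, and Mmp8, at 950.2 and 999, and S100a9 was at 264 and 135, whereas Elane, Ly6g, Camp and Mpo had at most 1 read in a library. Of 4 measured fibroblast markers 1 was higher, with a sum of 425 and 463 over the 8 listed, and Dcn, Pdgfra, Pdgfrb and Lum were each below 20 normalised reads. Of 8 measured epithelial markers 3 were higher, with a sum of 8933 and 10238 that was mostly Cdh1, at 5916 and 6692, which alveolar macrophages also express, and Scgb1a1, at 2432 and 2964. Of 9 endothelial markers 8 were higher and 7 at least 1.5-fold higher, the latter beside 1.74% of all measured genes. Their sum was 4410 and 4197, in which the lower gene Vwf dominates. Cldn5 had 72.0 and 20.5, and Cdh5 155 and 80.9. Dendritic cell markers were higher for 7 of 9 (sum 2757 and 2446), and T and NK cell markers for 5 of 5 measured (sum 335 and 258). B cell markers were higher for 0 of 7 measured (sum 1002 and 1095) and eosinophil markers for 0 of 3 measured (sum 800.3 and 1295). The eosinophil sum was mostly Alox15, at 724 and 1213, whereas Ccr3 was at 50.8 and 54.3 and Prg2 at 20.1 and 24.1. The part of these transcripts' sources in the values of C3, Cfp, Clu and Cd93 was not tested.

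**Figure D4:**
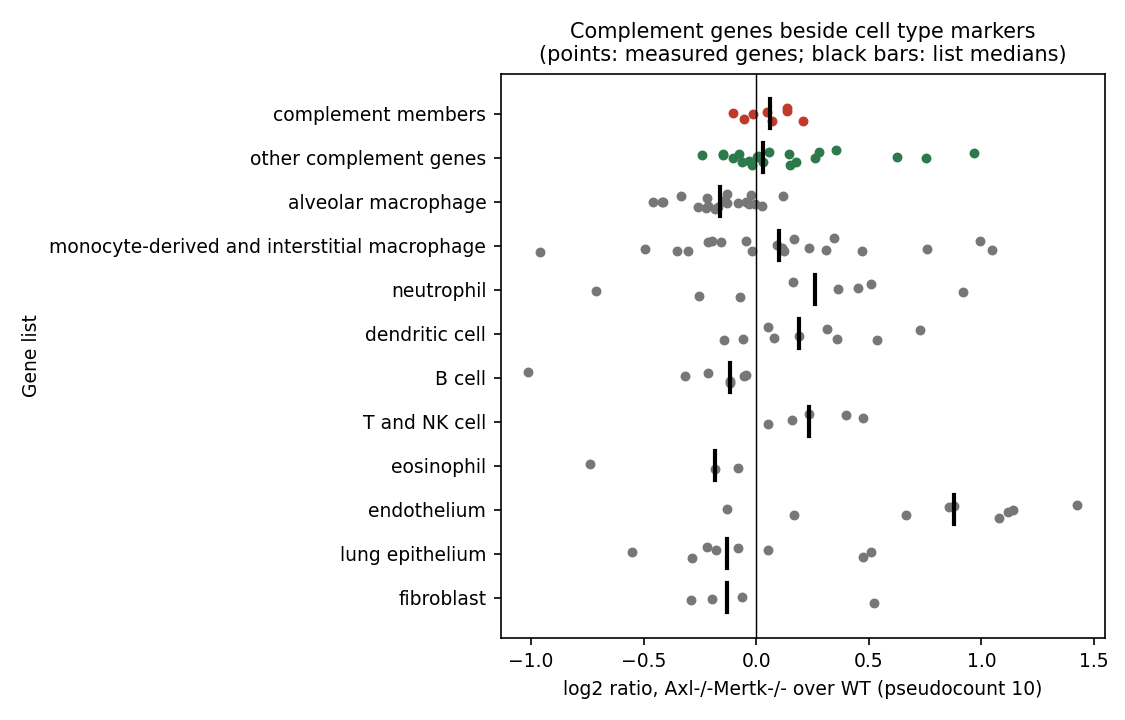
The log2 ratio of Axl-/-Mertk-/- over WT (pseudocount 10) of each measured gene, for the complement members (red), the other complement genes (green) and cell type marker lists (grey), with black bars at list medians. The members lie around a median of 0.06, the alveolar macrophage markers around -0.16, the monocyte-derived and interstitial macrophage markers around 0.10 and the endothelial markers around 0.88.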

How the data were processed

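Polyadenylated RNA of sorted lung macrophages was sequenced as strand-specific libraries made with dUTP, per the labels' protocols. Each deposited value is a signal, namely a gene's read count after the authors' division by the size factor of its library. The submitters' processing notes name TopHat2, DESeq2 and the build GRCm38; the sources used here give no version, counting program or strand setting. All non-zero values (100%) were whole multiples of the smallest in their library (tolerance 1e-06), so whole reads were recovered; 1 read is worth 1.18 normalised reads in Axl-/-Mertk-/- and 1.21 in WT. The table holds 0 columns of other samples.

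Genotypes were assigned to columns through the sample number in each label. With 1 library per genotype edgeR could not be fitted as a test. In its place stood the log2 ratio with a pseudocount of 10, a minimum mean of 20 and a fold of 1.5; the pseudocount understates ratios of low genes. As the comparison of recovered reads, the exact (Clopper-Pearson) 95% interval of the ratio excluded 1 for 1196 genes above and 1344 below. Single levels have exact Poisson intervals. Ratios of ratios are sample odds ratios with the normal approximation on the log scale. The code was tested on simulated data.

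The members and lists were chosen with earlier results of these data known. Named were all members, Axl and Mertk, and the other complement genes with a mean of at least 20; unmeasured genes and cell type markers were picked with values in view. Values of 2 listed genes are not reported here. Likeness of pattern cannot be measured over 2 libraries. Positions and lengths (union of exons) came from GENCODE vM21 for GRCm38, where 99.2% of measured identifiers were found. Near copies were sought with BLAST+ 2.17.0 (at least 90% identity over at least 300 bases). Promoters of 7 members were found in RefSeq. Python 3.11.15, SciPy 1.17.1 and edgeR 4.0.16 (TMM factors) were used.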

Additional observations from a re-analysis of the deposited data

How the results depend on the processing

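No member passed 1.5-fold in either direction under pseudocounts of 1 and 50, no minimum mean, a minimum mean of 100, the 3 other scalings, a smaller fold, or without genes within 20 Mb of Axl or Mertk. Judged by the counting interval instead, an alternative chosen after seeing the data, 4 members were higher and 1 lower. The median log2 ratio over the members ranged from 0.049 without a minimum mean to 0.075 with median-of-ratios factors from these libraries alone, and that over the other complement genes from 0.0017 (minimum mean of 100) to 0.070 (no minimum mean). All 40 recomputed member ratios stayed within the counting interval and kept their sign. The interval of C3ar1 included 1 under 1 scaling; those of C1qa, C1qb, C1qc and C3 lay above 1 under all 4. With longest transcripts in place of exon unions, 3 members (C1qc, C3, Cfp) changed place in the order of levels. No paired analysis was possible because each genotype has 1 library. Leaving out a library was not possible for the same reason. Depth limits Cfb and Vsig4, and no setting replaces the missing spread between animals.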

Other observations

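Relatives of the complement lectins and of C1q were also read, named after their values had been seen. Colec12, a membrane collectin that acts as a scavenger receptor, had 727 normalised reads in Axl-/-Mertk-/- and 1167 in WT, a ratio of 0.623 (0.562 to 0.690), past 1.5-fold lower as were 1.33% of all measured genes. The surfactant proteins Sftpa1 and Sftpd, lung collectins made by epithelium, had 135 and 158, and 42.5 and 36.2, with intervals that included 1. Of the C1q-related genes named C1qtnf or C1ql in the table only C1qtnf6 was measured, at 95.6 in Axl-/-Mertk-/- and 72.4 in WT, a ratio of 1.32 (0.934 to 1.88). Ptx3, a pentraxin that binds C1q, had 8 reads in Axl-/-Mertk-/- and 6 in WT.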
